A study of Arabidopsis thaliana with 30 samples.

Results

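The transcripts described here are those of the plastid genome of Arabidopsis thaliana, the small circular genome that every plastid keeps from its bacterial ancestor. Members were all rows of the gene table whose identifier starts with ATCG, which gave 133 of 32833 genes. Plastids transcribe this genome with a bacterial-type RNA polymerase, whose core is encoded in the plastid and whose sigma factors are encoded in the nucleus, and with a phage-type polymerase imported from the cytosol. The genome encodes photosynthetic subunits together with ribosomal proteins, RNA polymerase subunits, a protease subunit, transfer RNAs and ribosomal RNAs. In roots, most plastids are colourless and store starch or serve biosynthesis, so the photosynthetic genes of this genome have little known use there.

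RNA came from root cells of Wild Type seedlings grown for 6 days at 22 °C in MS medium with 16 h of light, on high phosphate (HPi) or on low phosphate (LPi). LPi is 5 µM phosphate by the treatment protocol, whereas the treatment label of those samples describes a medium lacking it, so the level is uncertain. The series' design text places the seedlings in the D-Root device, which keeps roots in the dark while shoots are lit. Fluorescent cells were sorted from 5 reporter lines, namely WER::GFP for epidermis, J0571 for cortex, J0661 for pericycle, SHR::GFP for stele and J3411 for lateral root cap. Each line stands for 1 cell type, with 3 HPi and 3 LPi libraries, so that line and cell type cannot be told apart. Values are given as CPM, the reads of a gene per 1000000 reads assigned to any gene.

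The gene reads of a library ranged from 427064 (stele LPi replicate 1) to 122076663 (pericycle HPi replicate 2), and its plastid reads from 1115 to 193354. The 5 xylem markers summed to 2117 to 5538 CPM in the stele libraries and to at most 133 CPM elsewhere. The 3 phloem markers did not set stele apart, at 132 to 147 CPM in stele and 246 to 312 CPM in pericycle at HPi. Nor did the 6 epidermis markers set epidermis apart, at 158 to 235 CPM there and 180 to 305 CPM in lateral root cap at HPi. In the cortex sort, 8 endodermis markers summed to 3873 to 8521 CPM, whereas its own 3 cortex markers summed to 30.3 to 40.1 CPM. The 4 pericycle markers summed to 513 to 864 CPM in the pericycle sort and to 823 to 1333 CPM in the epidermis sort. In stele they summed to 1048 to 1159 CPM at HPi and 864 to 1617 CPM at LPi, so they did not set the pericycle sort apart. The 4 lateral root cap markers were high in their own sort (594 to 1561 CPM) and in the epidermis sort (641 to 1193 CPM). Replicate 3 of epidermis HPi and replicate 3 of epidermis LPi were nearly identical, with an SD of their log2 ratios across genes of 0.0889, against 0.190 or more for every other pair of libraries within a cell type. Whether 1 library stands under both phosphate labels cannot be told from the files, so the epidermis values with n = 3 and the epidermis LPi comparison may count 1 library on both sides. Without both, 0 members were called in that comparison and the median log2 change of the members was 3.41, against 2.75 with them. In bulk samples, fewer cells rich in plastids and less plastid RNA per cell cannot be told apart. The kit used for cDNA primes on poly(A) tails, which most plastid transcripts lack, and the part of this in the levels was not tested.

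Of the 133 members, 28 had no read in any library and 9 had 1 to 19 reads over all 30 libraries. These 37 members formed exactly 2 unbroken runs of identifiers, 19 from ATCG00830 to ATCG01000 and 18 from ATCG01140 to ATCG01310, and held 70 reads in all. The other 96 members had 277 to 60592 reads each, and these 96 were the ones that passed the filter on low counts and were tested. The table gives no gene names, and the RefSeq tables of TAIR10.1 pair only 6 of the identifiers with a product, so the other 127 are described by their values alone. ATCG00660 and ATCG01310 encode the ribosomal proteins L20 and L2. ATCG00670 encodes ClpP, the proteolytic subunit of the Clp protease, and ATCG00530 a CemA-like protein of the envelope. ATCG00430 is paired with the name photosystem II reaction center protein G. That name was not matched to a gene record here, so no role is taken from it. Of these, ATCG01310 fell in a run almost without reads, with 1 read in all libraries together.

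The start of the gene for ribosomal protein L2, rpl2, is shown because the reference holds it in 2 identical copies. In the TAIR10.1 plastid genome of 154478 bases, the stretch Pltd:84171-110434 returns in reverse orientation at Pltd:128215-154478, identical over 26264 bases. The copies hold 16 and 17 of the 131 gene records. The copies of rpl2 lie at Pltd:84337-85843 on the minus strand and Pltd:152806-154312 on the plus strand. The first 60 bases of each, 5′ to 3′ along the gene and with the start codon in capitals, come from Pltd:85784-85843 (minus) and Pltd:152806-152865 (plus).
rpl2 copy A: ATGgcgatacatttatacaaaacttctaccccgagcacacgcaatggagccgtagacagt
rpl2 copy B: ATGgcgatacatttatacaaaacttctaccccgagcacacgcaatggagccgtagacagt
A read from within this stretch matches both copies equally well. Reads with more than 1 alignment were not given to a gene and made up 1.73% to 7.06% of a library. Their part in the 37 members almost without reads was not tested, and a low count of these members is no measure of their level. The following products lie outside the repeat, with cemA at Pltd:60741-61430 (plus), rpl20 at Pltd:68512-68865 (minus) and clpP at Pltd:69910-71882 (minus). Their members ATCG00530, ATCG00660 and ATCG00670 had 13780, 3485 and 11001 reads. The build behind the deposited counts is not given in the sources used here, so these positions describe the reference.

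Plastid transcripts were highest in pericycle and stele, intermediate in the cortex sort and lowest in epidermis and lateral root cap. At HPi, the pericycle libraries held 1905, 1584 and 1464 CPM summed over the members (1651 ± 228, SD, n = 3) and the stele libraries 1594, 1391 and 1734 CPM (1573 ± 172, n = 3). The ranges of pericycle and stele overlapped. The cortex libraries held 797, 1095 and 471 CPM (788 ± 312, n = 3). The epidermis libraries held 185, 331 and 392 CPM (303 ± 106, n = 3) and the lateral root cap libraries 355, 390 and 176 CPM (307 ± 115, n = 3), which also overlapped. All 6 pericycle and stele libraries lay above the 3 cortex libraries, and these lay above all 6 epidermis and lateral root cap libraries. The total is a sum over the members and was not tested.

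**Figure D1:**
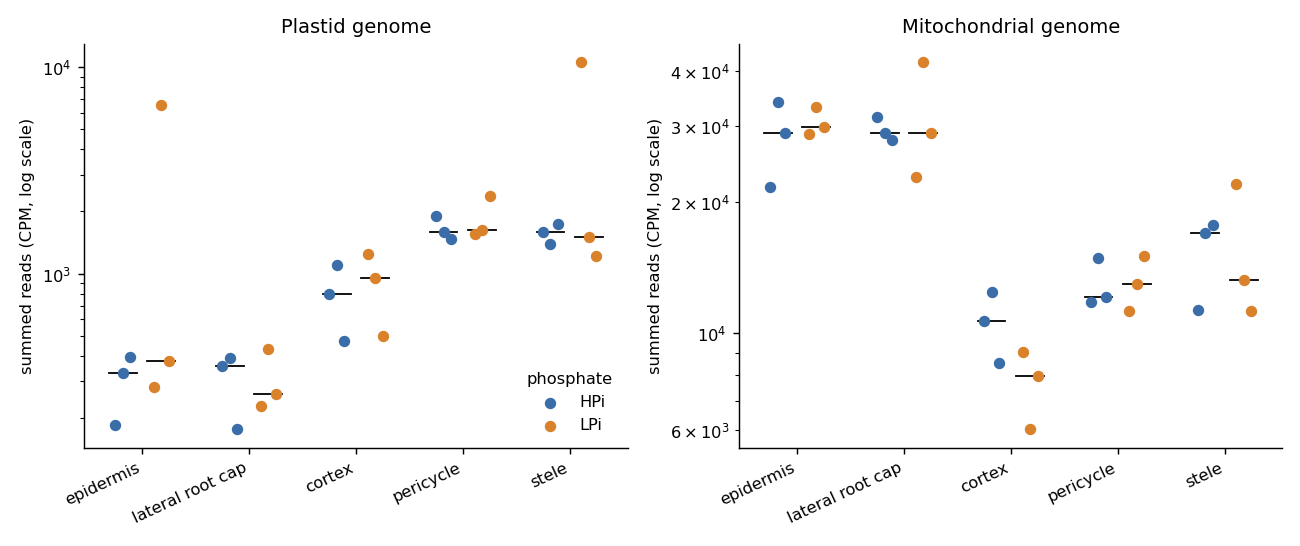
Summed reads of the plastid genome (left) and the mitochondrial genome (right) in each of the 30 libraries, in CPM on a log scale, by cell type; blue points are HPi, orange points LPi, and lines are medians of 3 libraries. The plastid total was 1391 to 1905 CPM in pericycle and stele at HPi and 176 to 392 CPM in epidermis and lateral root cap, with LPi libraries at 6528 CPM (epidermis) and 10556 CPM (stele) far above their groups.

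The mitochondrial genome, read from 152 identifiers that start with ATMG, had another order. Its total at HPi was 21716 to 33907 CPM in epidermis and lateral root cap, 11279 to 17739 CPM in pericycle and stele, and 8538 to 12472 CPM in the cortex sort. The ratio of mitochondrial to plastid reads at HPi was 107 ± 45.2 (SD, n = 3) in lateral root cap and 97.8 ± 22.1 in epidermis. It was 14.3 ± 3.46 in the cortex sort, 9.84 ± 2.59 in stele and 7.95 ± 1.63 in pericycle. The plastid order was therefore not an order of organelle reads in general. Both totals are shares of the same gene reads and are not independent of each other.

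Single members mostly followed the order of the total. At HPi, the median CPM over the 6 pericycle and stele libraries was above the median over the 6 epidermis and lateral root cap libraries for all 96 members tested, as it was for 58.4% of all genes tested. The ratio of these medians was 6.41 at the middle of the 94 members with a value above 0 in both, and ranged from 1.63 to 19.7. For 62 members every pericycle and stele library lay above every epidermis and lateral root cap library, which held for 15.5% of all genes tested.

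ATCG00740, one of the 12 members with the highest mean CPM, shows the pattern with many reads. It held 106, 75.1 and 73.6 CPM in pericycle at HPi and 79.3, 52.2 and 99.0 CPM in stele. In the cortex sort it held 30.6, 37.8 and 19.9 CPM, in epidermis 6.65, 20.9 and 14.8 CPM, and in lateral root cap 12.9, 18.7 and 9.01 CPM. All pericycle and stele values lay above all values of the other sorts. ATCG00500 followed the pattern least, with the ratio of 1.63. Its HPi libraries held 104, 105 and 74.2 CPM in the cortex sort, 76.5, 83.9 and 92.0 CPM in pericycle and 68.3, 61.3 and 68.2 CPM in stele. It held 34.6, 25.4 and 76.3 CPM in epidermis and 54.4, 62.6 and 31.4 CPM in lateral root cap. Epidermis HPi replicate 3 thus lay above all stele libraries, and no edgeR comparison of a cell type called this member.

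At HPi, every cell type was then set against the mean of the remaining 4, using edgeR's quasi-likelihood F test on all 30 libraries. Benjamini-Hochberg adjustment ran over 24866 genes, and calls were made at an adjusted p under 0.05. These comparisons share the same HPi libraries, since a low sort raises the difference of the others. Calls of a gene in several sorts are therefore not separate findings. In pericycle, 18 of 96 members (18.8%) were called higher and 0 lower, where 13.2% of all genes tested were called higher and 7.17% lower. The median log2 difference of the members was 1.45, against 0.18 for all genes, and all 96 were positive. In stele, 20 members (20.8%) were called higher and 0 lower, where 12.1% of all genes were called higher and 5.68% lower. Their median was 1.43, against -0.03 for all genes, and 90 were positive. In lateral root cap, 20 members (20.8%) were called lower and 0 higher, where 11.5% of all genes were called lower and 12.4% higher. Their median was -1.66, against 0.02 for all genes, and 92 were negative.

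The other 2 cell types gave 1 call between them. In epidermis 1 member was called lower and 0 higher, where 6.23% and 11.6% of all genes were, although 93 members were negative and their median was -1.34 against -0.06 for all genes. In the cortex sort edgeR called 0 members and 0 were under an unadjusted p of 0.05, where 11.4% of all genes were called and 23.8% were under that p. The median there was 0.25 against 0.02, and DESeq2 and limma voom called 0 as well.

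**Figure D2:**
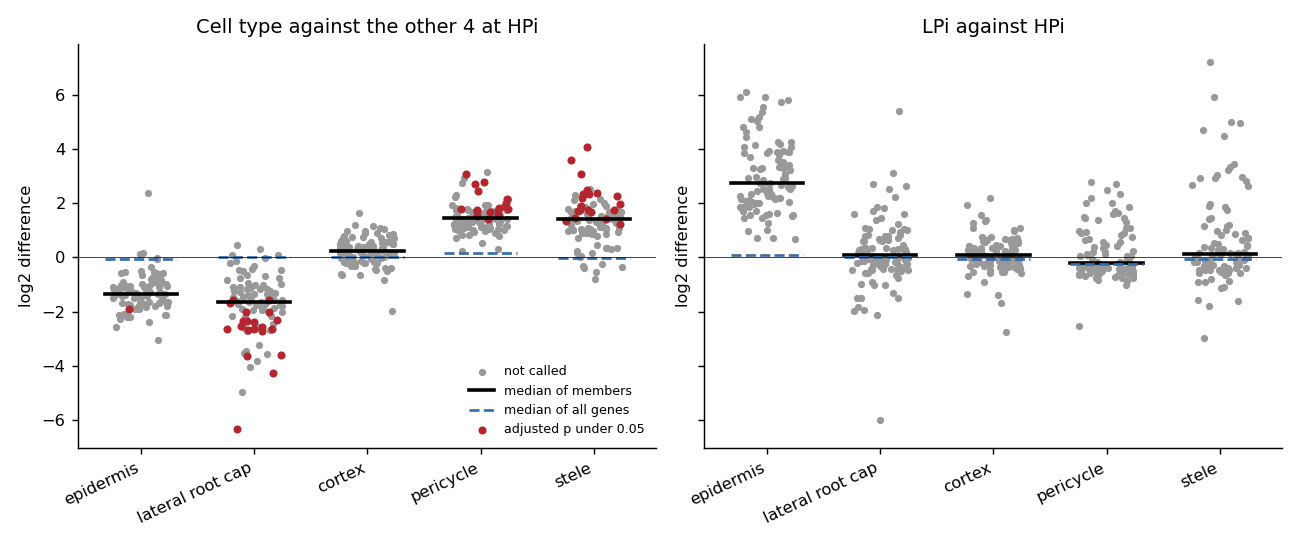
Log2 differences of the 96 tested members (points), cell types against the mean of the remaining 4 at HPi (left) and LPi against HPi (right); red points passed an adjusted p of 0.05, black lines are medians of the members and dashed blue lines medians of all genes tested. Members centre on 1.45 in pericycle and 1.43 in stele and on -1.66 in lateral root cap and -1.34 in epidermis, and 0 members passed in the LPi comparisons.

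Some of the calls lay next to each other. The longest unbroken run of members called in 1 sort was ATCG00740 to ATCG00820, a stretch singled out by its calls in lateral root cap after its values were seen. Its 9 members made up 9 of the 20 calls there, 8 of the 18 in pericycle and 8 of the 20 in stele. The other 11, 10 and 12 calls lay outside it. Summed, they held 326, 237 and 229 CPM in pericycle at HPi, 241, 202 and 315 in stele, 109, 136 and 67.7 in the cortex sort, 27.4, 58.9 and 52.8 in epidermis and 30.9, 42.0 and 15.8 in lateral root cap. The ranges of pericycle and stele lay above the cortex range, which lay above the other 2. Of the 8 members called in pericycle, stele and lateral root cap together, 7 were in this run. Since the run was chosen by its lateral root cap calls, this count and the sums only describe it and lend it no support. Neighbouring plastid genes are often transcribed together into 1 long RNA, so members next to each other need not be independent.

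ATCG00740, at the head of the run and with the values given above, was called in 3 sorts. Its log2 difference was 1.58 ± 0.38 (SE, adjusted p = 0.00386) in pericycle, 1.33 ± 0.39 (adjusted p = 0.0161) in stele and -1.57 ± 0.48 (adjusted p = 0.0166) in lateral root cap. The stele call was lost without stele HPi replicate 3, and that of lateral root cap without its HPi replicate 1 or 3.

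ATCG00530, ATCG00670, ATCG00660 and ATCG00430 were called in no cell type. ATCG00530, the CemA-like envelope protein, held 30.8, 28.03 and 27.8 CPM in pericycle at HPi and 20.96, 31.2 and 29.5 CPM in stele, against 2.16 to 13.9 CPM in the other 9 HPi libraries. The 2 inner sorts did not overlap with the others, but the adjusted p was 0.0513 in pericycle and 0.0928 in stele. ATCG00670, the protease subunit ClpP, held 24.96, 22.6 and 24.04 CPM in pericycle but 7.29, 13.97 and 21.4 CPM in stele, where it overlapped with the cortex sort and lateral root cap. ATCG00660, encoding ribosomal protein L20 of the large subunit, held 4.56, 6.36 and 12.5 CPM in stele and 0.226, 1.77 and 1.17 CPM in lateral root cap, with an adjusted p of 0.0769 in stele. ATCG00430 held 10.9 CPM in stele HPi replicate 1 and 0.0419 to 2.76 CPM in the other 14 HPi libraries.

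Members with the largest fitted differences among the calls had low levels and rested on few libraries. ATCG00250 held 8.24, 3.42 and 1.11 CPM in pericycle at HPi and 0.226, 0 and 0.0419 CPM in lateral root cap. It was called higher in pericycle (3.08 ± 0.84, adjusted p = 0.00961) and lower in lateral root cap (-4.27 ± 1.46, adjusted p = 0.0328). The first call was lost without pericycle HPi replicate 1, and the second without lateral root cap HPi replicate 2 or 3. ATCG00230 held 11.7, 5.04 and 1.57 CPM in pericycle and at most 1.80 CPM in the other HPi libraries (2.79 ± 0.93, adjusted p = 0.0333). This call was lost without pericycle HPi replicate 1 or 2, and without replicate 1 of epidermis HPi, replicate 1 of cortex HPi or replicate 3 of lateral root cap HPi. In pericycle, the 3 libraries of both members differed several-fold, and the lowest overlapped with other sorts.

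In stele the same was seen of a single library. ATCG01120 held 36.4, 3.25 and 3.51 CPM there (4.084 ± 0.997, adjusted p = 0.00400) and ATCG00060 held 19.1, 1.15 and 4.19 CPM (3.59 ± 1.02, adjusted p = 0.0132). Both calls were lost without stele HPi replicate 1. That library had 1749 plastid reads, and its 8 endodermis markers summed to 1768 CPM, against 22.8 and 67.4 CPM in the other stele HPi libraries; the part of this in the calls was not tested.

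In lateral root cap, ATCG00110 had no read in the 3 HPi libraries. Set to a floor of 3 reads over that group, or 0.0679 CPM, it was at least 7.81-fold lower there than the mean of 0.531 CPM in the other 4 cell types. The call (adjusted p = 0.0457) was lost in 14 of the 30 fits that left out 1 library. ATCG00320 also had no read in those libraries, and with both at the floor the median of the members stayed at -1.66. In epidermis, the call was ATCG00650, at 0.997, 2.02 and 2.63 CPM (-1.89 ± 0.67, adjusted p = 0.0498), and it was lost in 27 of the 30 fits.

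The direction of the members' median held in 4 cell types under every alternative run, from 1.21 to 1.69 in pericycle, 1.196 to 1.75 in stele, -1.91 to -1.31 in lateral root cap and -1.58 to -0.85 in epidermis. In the cortex sort it ranged from -0.05 to 0.42. The number of calls, in contrast, depended on the method and on single libraries. limma voom called 76 members in pericycle, 69 in stele, 7 in lateral root cap and 9 in epidermis. With RLE factors edgeR called 8 in pericycle, 11 in lateral root cap and 0 in epidermis, and DESeq2 called 11 in pericycle and 3 in epidermis. With no scaling factors 31 were called in stele. In pericycle it fell from 18 to 4 without pericycle HPi replicate 1 or without replicate 2, to 10 without replicate 3 and to 11 without epidermis HPi replicate 1. In stele it fell from 20 to 5 without stele HPi replicate 3 and to 10 without replicate 2, and it rose to 35 without epidermis LPi replicate 2. In lateral root cap it fell from 20 to 5 without lateral root cap HPi replicate 3. In epidermis it rose from 1 to 6 without epidermis LPi replicate 2. With the replicate number as a block, 28 members were called in pericycle and 5 in epidermis. By the ranges alone, 8 members lay above every other HPi library in pericycle and 7 in stele, where 7.17% and 6.39% of all genes did. In lateral root cap 4 members lay below every other HPi library and in epidermis 2, where 2.08% and 2.15% of all genes did.

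The make-up of plastid reads was uneven and differed between the sorts. The 12 members with the highest mean CPM took 39.0% to 54.0% of plastid reads in the 29 libraries other than stele LPi replicate 1. Gene lengths are not paired with these identifiers, so shares are of reads and not of molecules. ATCG00500 was the largest member in 16 libraries. It took 7.68% to 19.5% of plastid reads in epidermis and lateral root cap at HPi and 9.56% to 15.8% in the cortex sort. In pericycle and stele at HPi it took 3.93% to 6.28%, below every HPi library of the other 3 sorts. ATCG01130 was the largest member in 10 libraries, all of them of pericycle or stele.

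ATCG01130 held 175, 116 and 109 CPM in pericycle at HPi, 57.4, 165 and 148 in stele, 30.3, 54.6 and 18.7 in the cortex sort, 7.64, 20.7 and 26.7 in epidermis and 24.4, 20.3 and 6.12 in lateral root cap. All its pericycle and stele values lay above the other 3 sorts, and it was called higher in pericycle (1.80 ± 0.57, adjusted p = 0.0262) and stele (1.69 ± 0.57, adjusted p = 0.0411). The first call was lost without any 1 of the 3 pericycle HPi libraries, and the second in 14 of the 30 fits that left out 1 library. ATCG00190 was called higher in pericycle and not in stele. It held 150, 104 and 70.1 CPM in pericycle and 68.3, 11.96 and 19.8 CPM in stele at HPi, with a log2 difference of 2.44 ± 0.75 (adjusted p = 0.023) in pericycle and 0.05 ± 0.86 in stele. The pericycle call was lost in 7 of the 30 fits that left out 1 library. The ranges of the 2 sorts did not overlap but came as near as 70.1 and 68.3 CPM, and the difference between them was not tested.

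**Figure D3:**
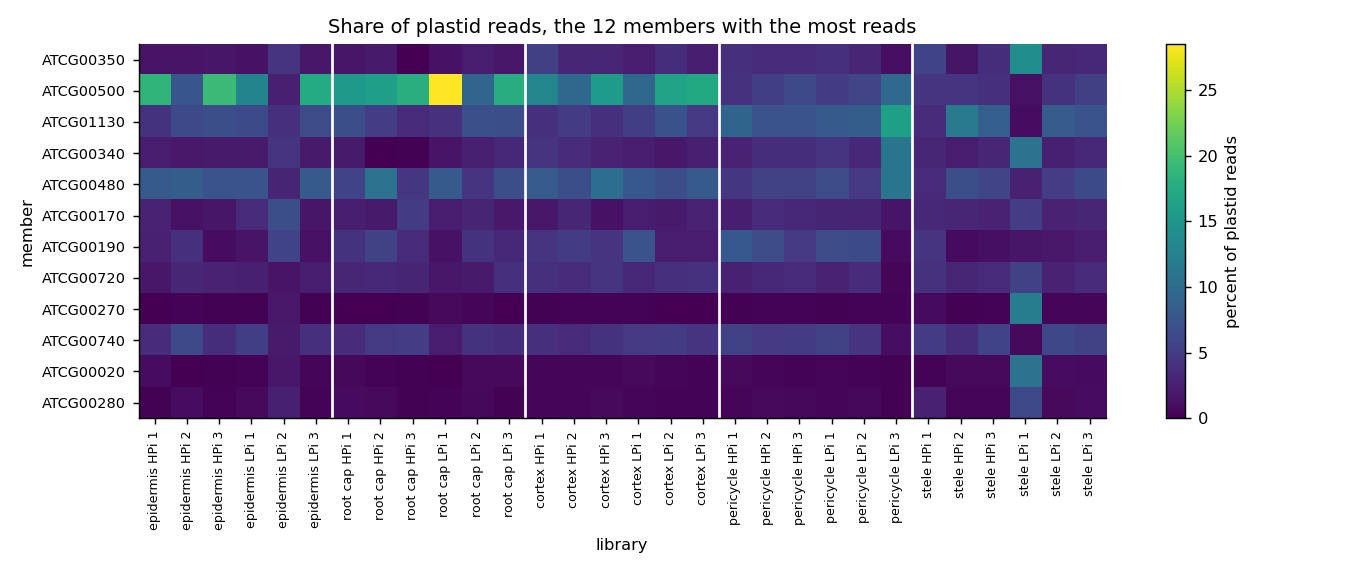
Share of plastid reads, in percent (colour), taken by each of the 12 members with the highest mean CPM in each library, grouped by cell type and phosphate. ATCG00500 takes 7.68% to 19.5% in epidermis and lateral root cap at HPi and 3.93% to 6.28% in pericycle and stele, and ATCG00270, ATCG00020 and ATCG00280 stand out in stele LPi replicate 1 with 12.1%, 10.9% and 6.29%.

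Low phosphate was compared with high phosphate within each cell type. By edgeR, 0 of 96 members were called in each of the 5, where 0% of all genes were called in epidermis, cortex sort and stele, 0.00402% in pericycle and 0.0241% in lateral root cap. At an unadjusted p under 0.05 there were 78 members in epidermis, 14 in stele, 5 in pericycle, 3 in lateral root cap and 0 in the cortex sort. Of all genes, 0.981% were under that p in epidermis, 3.05% in stele, 12.3% in pericycle, 6.75% in lateral root cap and 4.91% in the cortex sort. DESeq2 called 1 member in epidermis and 3 in pericycle, and limma voom called 0 in all 5. The median log2 change was 2.75 in epidermis, 0.14 in stele, 0.11 in lateral root cap, 0.08 in the cortex sort and -0.22 in pericycle, where the median of all genes was -0.26. Apart from epidermis, these medians turned direction under some alternatives. They ranged from -0.32 to 0.06 in pericycle, -0.34 to 0.42 in lateral root cap, -0.24 to 0.48 in the cortex sort and -0.16 to 0.46 in stele. The pericycle median turned to 0.04 with RLE factors and 0.06 with DESeq2. That of lateral root cap turned to -0.34 without its LPi replicate 2 and -0.12 without its HPi replicate 3, and that of the cortex sort to -0.24 without its LPi replicate 1.

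The epidermis and stele values rested on 1 library each. In epidermis the LPi totals were 282, 6528 and 377 CPM (2396 ± 3579, SD, n = 3), against 185 to 392 CPM at HPi. In stele they were 10556, 1500 and 1216 CPM (4424 ± 5312, n = 3), against 1391 to 1734 CPM at HPi. In both, the ranges of LPi and HPi overlapped. The LPi totals were 1247, 952 and 500 CPM (900 ± 376, n = 3) in the cortex sort, 1549, 1632 and 2377 CPM (1853 ± 456) in pericycle and 229, 433 and 260 CPM (307 ± 110) in lateral root cap, each overlapping with HPi. Without epidermis LPi replicate 2, the median change in epidermis was 0.11, with 60 members positive in place of 96 and 0 under an unadjusted p of 0.05. Without stele LPi replicate 1, the median in stele was -0.05 and 0 members were under that p.

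Few members separated the phosphate levels in every library. In pericycle 10 members were lower in all LPi than in all HPi libraries and 0 were higher, where 9.96% of all genes were lower and 2.06% higher in this way. In the cortex sort 4 members were higher (3.96% of all genes) and 0 lower (5.53%). In epidermis 3 were higher and 0 lower (6.74% and 0.832%), in stele 3 higher and 4 lower (3.27% and 7.75%), and in lateral root cap 2 higher and 1 lower (3.58% and 4.13%).

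The 2 libraries with high totals stood apart in different ways. In epidermis LPi replicate 2, all 96 members lay above each of the other 5 epidermis libraries, where 42.8% of all genes tested did. The fold over the median of those 5 libraries was 25.8 at the median of the 95 members that have one. ATCG00430 held 67.9 CPM there and 0.0778 to 0.665 CPM in the other 5. ATCG00670 (ClpP) held 101 CPM against 2.66 to 7.32 CPM, and ATCG00500 held 165 CPM against 25.4 to 76.3 CPM. The library had 8028194 gene reads and 29409 genes with a read, the most of all 30 libraries, and its mitochondrial total of 33163 CPM lay within the range of the other epidermis libraries. Of the 50 mitochondrial genes tested, 38 lay above each of the other 5.

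In stele LPi replicate 1, 41 members lay above and 24 below each of the other 5 stele libraries, where 20.3% of all genes lay above and 26.4% below. The fold over the median of those 5 was 1.03 at the median of the members, so the high total came from some members only. ATCG00350 held 1487 CPM there, against 23.1 to 91.1 CPM in the other 5, and ATCG00270 held 1274 CPM against 2.84 to 13.7 CPM. ATCG00740, by contrast, held 81.95 CPM, within the range of the others at 52.2 to 99.0 CPM. This library was the shallowest of the series, with 4508 plastid reads, and its 6 epidermis markers summed to 119 CPM, against 9.51 to 31.8 CPM in the other stele libraries. The part of depth or of other cells in either library was not tested.

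The make-up shifted in both libraries. In stele LPi replicate 1 the 12 members with the highest mean CPM took 72.4% of plastid reads, against 39.0% to 54.0% in the other libraries. That mean includes this library with its high total, so its larger share is partly set by how the 12 were chosen. Of the 12, ATCG00270, ATCG00020 and ATCG00280 had median shares of only 0.224%, 0.393% and 0.512% in the 28 libraries without high totals. ATCG00270 there took 12.1%, against 0% to 0.858% in the 28 libraries other than this and epidermis LPi replicate 2, and ATCG00020 took 10.9% against 0% to 0.910%. ATCG00500 took 1.33% against 3.93% to 28.5%, and ATCG01130 took 0.911% against 3.48% to 16.3%. In epidermis LPi replicate 2, ATCG00270 took 1.96%, ATCG00020 took 1.84% and ATCG00500 took 2.52%. These 3 shares also lay outside the range of the 28, on the same sides. Spearman's rho between the shares in a library and the median shares of the others, across 96 members that share the library's depth, was 0.577 in stele LPi replicate 1 and 0.776 in epidermis LPi replicate 2. In the other 28 libraries it was 0.689 to 0.983, with a median of 0.943, so that of epidermis LPi replicate 2 lay within their range.

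Whether the response to phosphate differed between cell types was tested with a joint F test of 4 interaction contrasts. By edgeR 0 members were called, as were 0% of all genes, and 14 members were under an unadjusted p of 0.05, where 5.37% of all genes were. DESeq2 and limma voom called 0 as well. For the epidermis response against the mean of the other 4, 52 members were under an unadjusted p of 0.05 (2.42% of all genes were) and 0 were called, as were 0% of all genes; this comparison holds epidermis LPi replicate 2.

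Nuclear genes that serve the plastid genome were read from 9 lists of 104 genes, of which 101 were tested. The nuclear genes for plastid ribosomal proteins, which join the plastid-encoded ones in the same ribosome, had the same order of levels as the members. The 21 genes summed at HPi to 258, 249 and 259 CPM in pericycle, 227, 260 and 232 in stele, 83.6, 140 and 87.7 in the cortex sort, 55.0, 56.4 and 25.1 in epidermis and 48.5, 50.6 and 47.9 in lateral root cap. Pericycle and stele lay above the cortex sort, and this lay above the other 2 sorts. Of the 20 tested, edgeR called 8 higher in pericycle (median log2 difference of the list 1.45) and 6 higher in stele (1.403). It called 5 lower in lateral root cap (-1.09), 2 lower in epidermis (-1.34) and 0 in the cortex sort (-0.12). Of all genes, 13.2% were called higher in pericycle, 12.1% higher in stele, 11.5% lower in lateral root cap and 6.23% lower in epidermis. Of the epidermis calls, PRPS13 was lost in 27 of the 30 fits that left out 1 library and PRPS20 without any 1 of the 3 epidermis HPi libraries.

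Among them, PRPS1 (ribosomal protein S1) held 39.4, 35.9 and 37.1 CPM in pericycle, 14.6, 33.0 and 34.9 in stele and 2.71, 2.78 and 1.26 in lateral root cap at HPi. Its difference was 2.09 ± 0.49 (adjusted p = 0.00322) in pericycle and -2.88 ± 0.70 (adjusted p = 0.00356) in lateral root cap. PRPS5 (S5) held 15.9, 14.3 and 12.4 CPM in pericycle, 8.20, 16.8 and 13.5 in stele and 0, 0.0631 and 1.21 in lateral root cap. It was called in all 3 sorts, at 2.42 ± 0.61 (adjusted p = 0.00517), 2.23 ± 0.62 (adjusted p = 0.0109) and -3.26 ± 0.89 (adjusted p = 0.00888). The stele call was lost without stele HPi replicate 2 or 3, and the last without lateral root cap HPi replicate 2. Both genes were thus called higher in pericycle and lower in lateral root cap, as was the plastid-encoded member ATCG00740. PRPL27 (L27) was called higher in stele, at 27.3, 10.7 and 12.5 CPM against at most 5.35 CPM in the other HPi libraries (2.63 ± 0.65, adjusted p = 0.00457).

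**Figure D4:**
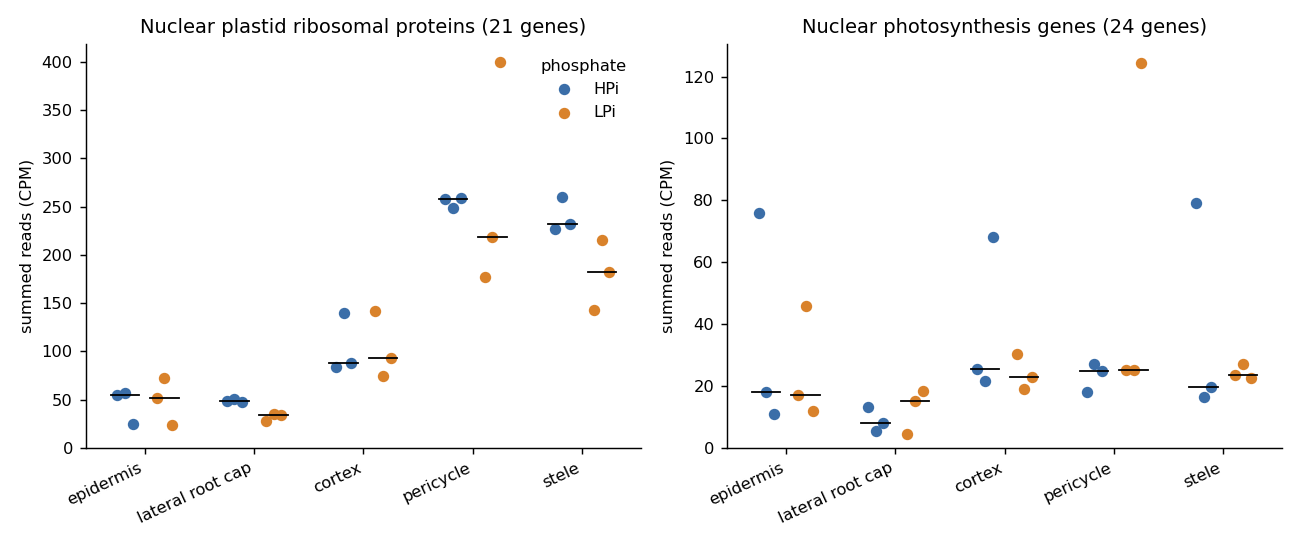
Summed CPM of the nuclear genes for plastid ribosomal proteins (left, 21 genes) and of nuclear photosynthesis genes (right, 24 genes) in each library, on linear axes; blue is HPi, orange LPi, and lines are medians of 3 libraries. The ribosomal list was 227 to 260 CPM in pericycle and stele at HPi and 25.1 to 56.4 CPM in epidermis and lateral root cap, while the photosynthesis list was 4.34 to 125 CPM over all 30 libraries.

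The nuclear photosynthesis genes, which include light-harvesting proteins, the small subunit of Rubisco and photosystem subunits, gave 8 calls between cell types. All 24 summed to 4.34 to 125 CPM in a library. Of 22 tested, 2 were called higher in epidermis, 2 higher in the cortex sort, 1 higher in stele and 3 lower in lateral root cap. Of all genes, 11.6%, 8.02%, 12.1% and 11.5% were called in these directions. PSBO1 in the cortex sort was lost in 18 of the 30 fits that left out 1 library, and PETC in lateral root cap in 9. LHCB4.1 in stele was lost in 4 and LHCA4 in lateral root cap in 2 of them. RBCS3B in epidermis was lost without epidermis HPi replicate 1. PSBO2 in epidermis and LHCB6 in the cortex sort and lateral root cap were lost in 0. In the libraries with high plastid totals the 24 genes summed to 45.7 CPM (epidermis LPi replicate 2) and 23.4 CPM (stele LPi replicate 1). The library with the highest sum, pericycle LPi replicate 3 with 125 CPM, had a plastid total of 2377 CPM. In it LHCB3, a light-harvesting protein, held 105 CPM and the other 23 genes 19.9 CPM.

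Genes for the transcription machinery of the plastid were counted beside the shares of all genes tested. Called higher among all genes were 8.02% in the cortex sort and 13.2% in pericycle, and called lower were 11.5% in lateral root cap. In lists this short a single call is no result about the list. Of the 6 sigma factors, which direct the bacterial-type polymerase to promoters, only SIG1 was called. It held 16.96, 10.49 and 16.5 CPM in the cortex sort, 16.2, 10.02 and 11.6 in pericycle, 3.64, 7.49 and 8.85 in stele, 1.66, 2.26 and 1.41 in epidermis and 2.03, 1.14 and 0 in lateral root cap at HPi. It was higher in the cortex sort (2.27 ± 0.52, adjusted p = 0.0032) and pericycle (1.63 ± 0.54, adjusted p = 0.0302) and lower in lateral root cap (-2.90 ± 0.76, adjusted p = 0.00633). The pericycle call was lost in 5 of the 30 fits that left out 1 library. The 3 phage-type polymerases, of which RPOTm serves the mitochondria and RPOTp the plastids, gave 0 calls by edgeR. RPOTp held 18.3, 18.6 and 16.8 CPM in pericycle at HPi, 8.20, 19.6 and 13.3 in stele, 8.75, 12.4 and 11.4 in the cortex sort, 0.332, 1.09 and 2.06 in epidermis and 6.77, 0 and 0 in lateral root cap. Its pericycle, stele and cortex libraries all lay above those of the other 2 sorts. The remaining phage-type polymerases, RPOTmp and RPOTm, did not separate in this way. RPOTmp held 7.53 to 10.6 CPM in the cortex sort at HPi and 11.9 CPM in lateral root cap HPi replicate 2. RPOTm held 2.72 to 5.34 CPM in the cortex sort at HPi and 7.15 CPM in epidermis HPi replicate 1. The share of all genes with this separation was not counted.

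Of 14 polymerase-associated proteins, 1 was called, MURE, higher in stele (2.83 ± 0.95) and lower in lateral root cap (-5.90 ± 1.71). The first call was lost in 9 of the 30 fits that left out 1 library, and the second without lateral root cap HPi replicate 2. Among all genes tested, 12.1% and 11.5% were called in these directions. MURE held 0, 0 and 0.0838 CPM in lateral root cap at HPi, so the size of that difference is uncertain. Of 8 genes for plastid RNA turnover and nucleoids, RNR1, a ribonuclease (0.97 ± 0.33), and WHY3, a Whirly DNA-binding protein (1.57 ± 0.54), were called higher in pericycle. That direction was called there for 13.2% of all genes. RECA1, a recombination protein, was called higher in stele (1.51 ± 0.43), but not without stele HPi replicate 1. The calls of RNR1 and WHY3 were lost in 17 and 18 of the 30 fits that left out 1 library. Under low phosphate, edgeR called 0 of the 101 nuclear genes in each cell type, with 0 under an unadjusted p of 0.05 in epidermis and in the cortex sort, 10 in pericycle, 1 in stele and 11 in lateral root cap. Of all genes, 0.981%, 4.91%, 12.3%, 3.05% and 6.75% were under that p in these sorts. Over the 5 cell types DESeq2 called 3 and limma voom 0.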

How the data were processed

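The authors deposited raw read counts per gene for 30 libraries, without normalization and with replicates kept apart. The submitters' processing notes name CASAVA 1.4, FastQC 0.11.9, MultiQC 1.7, STAR 2.5.3a, HTSeq 1.99.2 and DESeq2. cDNA was made with a SMART-Seq v4 Ultra Low Input kit and libraries with a ThruPLEX kit. For build, annotation and strandedness, not given in the sources used here, no setting can be stated, so reads of overlapping or antisense genes may be shared. The table held 32833 genes and 5 lines of totals (4.99% to 12.5% of a library) that were not used. Groups and replicate numbers came from the labels. Nothing says that replicates came from separate cultures, so the spread behind the p-values is that between these samples and may be technical.

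Counts were divided by all gene reads to give CPM. The test was that of edgeR 4.0.16 in R 4.3.3 (filterByExpr, TMM, robust quasi-likelihood F test, 2-sided, 1 mean per group, 20 residual degrees of freedom, common BCV 0.749). Benjamini-Hochberg adjustment ran over 24866 genes and calls were made below 0.05. The workflow was tested on simulated data. Floors of 3 reads cover counting error only, since amplified reads are not independent molecules. The members, the nuclear gene lists, the marker lists and the alternatives were chosen with earlier results of these data known. Text names the 12 members with the highest mean CPM, up to 2 members called in each direction with the largest log2 difference, members with a product (1 of the 6 is not reported here), and up to 4 called genes of a list with the smallest p. Products and rpl2 sequences came from RefSeq (TAIR10.1).

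Pairing by replicate number was checked by correlating, over genes, how far HPi and LPi libraries of 1 number lay from their group means. All 3 correlations were above 0.1 in epidermis (0.270, 0.304 and 0.652, the last from the nearly identical pair) and stele (0.336, 0.228 and 0.260), from the data alone, and not in the cortex sort (lowest -0.388), pericycle (0.0476) or lateral root cap (0.0164). Alternatives were RLE factors, no scaling, library size from nuclear genes, no filter, 5 CPM in 3 libraries, DESeq2 1.42.0, limma 3.58.1 voom with sample weights, the replicate block, each cell type alone, each library left out, and the fits without the 3 shallowest or the 2 nearly identical libraries. The fit without epidermis LPi replicate 2 and stele LPi replicate 1 was added after seeing the data.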

Additional observations from a re-analysis of the deposited data

How the results depend on the processing

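No called value reversed under any alternative that was run. RLE factors moved the median of all genes most, by 0.32 in lateral root cap and -0.25 in pericycle, and the median of the members by a like amount. For the named genes and members, 1934 values kept their side of the threshold and 389 lost their call. With RLE factors, 8 members were called in pericycle, 11 in lateral root cap, 0 in epidermis and 1 nuclear list gene under low phosphate. With no scaling, 31 were called in stele. DESeq2 called 11 in pericycle and 3 in epidermis. Under low phosphate it called 1 member in epidermis, 3 in pericycle and 3 nuclear list genes. limma voom called 76 in pericycle, 69 in stele, 7 in lateral root cap, 9 in epidermis and 166 nuclear list genes summed over the cell types, against 57 by edgeR. In epidermis 0 members were called with library size from nuclear genes, with no filter, without the 3 shallowest libraries and without the 2 nearly identical ones. Without epidermis LPi replicate 2 and stele LPi replicate 1 together, chosen after seeing the data, 8 were called in epidermis, 1 in the cortex sort, 39 in stele and 31 in lateral root cap. The causes were not tested.

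With the replicate number as a block, 28 members were called in pericycle and 5 in epidermis; in epidermis under low phosphate 0 were called, the median was 1.59 and 13 were under an unadjusted p of 0.05. The block moved no other count of called members by over 1.5 times.

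Leaving out 1 library each gave 0 to 6 calls in epidermis, 4 to 20 in pericycle, 5 to 35 in stele, 5 to 27 in lateral root cap and 0 to 0 in the cortex sort. The phosphate comparisons and interactions stayed at 0 to 0. Nuclear list genes called ranged from 0 to 3 under low phosphate and from 36 (without pericycle HPi replicate 3) to 65 between cell types. With TMM-scaled library sizes the plastid total was 2442 CPM in pericycle LPi and 1373 CPM in stele HPi, and the mitochondrial total was 16519 CPM in pericycle LPi. Without the member with the most reads, ATCG00500 took 4.58% in stele HPi. Fitting each cell type alone gives no value for cell type or interaction comparisons. Depth limits members of few reads most in stele LPi replicate 1.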

Other observations

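The 8 genes for starch in root plastids gave calls in both directions. By edgeR 2 were called higher in epidermis and 1 lower in the cortex sort. In pericycle 1 was higher and 1 lower, in stele 1 and 2, and in lateral root cap 1 and 1. Called higher among all genes were 11.6% in epidermis, 13.2% in pericycle, 12.1% in stele and 12.4% in lateral root cap. Called lower were 3.37% in the cortex sort, 7.17% in pericycle, 5.68% in stele and 11.5% in lateral root cap. APL1, a large subunit of ADP-glucose pyrophosphorylase, held 11.97, 14.1 and 16.8 CPM in epidermis at HPi. By edgeR it was higher in epidermis (3.30 ± 0.51, adjusted p = 2.19e-05) and lateral root cap (2.05 ± 0.53, adjusted p = 0.00557) and lower in pericycle (-2.50 ± 0.70, adjusted p = 0.0108) and stele (-2.13 ± 0.74, adjusted p = 0.0445). The stele call was lost in 15 of the 30 fits that left out 1 library, and the pericycle call without pericycle HPi replicate 3. ADG1, the small subunit of the same enzyme, was lower in stele (-2.10 ± 0.53, adjusted p = 0.00519), but not called without stele HPi replicate 2. PGM1, the plastid phosphoglucomutase, was higher in stele (2.08 ± 0.49, adjusted p = 0.00291) and pericycle (1.399 ± 0.497, adjusted p = 0.0448, lost in 24 of the 30 fits) and lower in lateral root cap (-2.47 ± 0.66, adjusted p = 0.00728).

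Of 12 chlorophyll synthesis genes, 3 were called higher and 1 lower in pericycle, where 13.2% of all genes were called higher and 7.17% lower. In the other sorts 1 was higher in epidermis, 1 higher in stele and 2 lower in lateral root cap. All genes were called in these directions at 11.6%, 12.1% and 11.5%. HEMA1, which starts tetrapyrrole synthesis, was higher in epidermis (0.96 ± 0.23, adjusted p = 0.00312) and lower in pericycle (-0.93 ± 0.26, adjusted p = 0.0117), the second lost without pericycle HPi replicate 1 or 3. CHLD, a subunit of magnesium chelatase, was lower in lateral root cap (-5.99 ± 1.17, adjusted p = 0.000433). It held 0.226, 0.0631 and 0.0419 CPM there at HPi, so the size of that difference is uncertain. CHLD was also called higher in pericycle, lost in 17 of the 30 fits that left out 1 library, and in stele, lost without stele HPi replicate 3. CRD1 and CHLG were the other genes called higher in pericycle, and both were lost without pericycle HPi replicate 3. CHLI1, the other gene called lower in lateral root cap, was lost in 9 of the 30 fits. Of 8 greening regulators, PIF3, a light-regulated transcription factor, was higher in the cortex sort (4.002 ± 0.72, adjusted p = 0.000195) and GUN1 lower in stele (-0.76 ± 0.26, adjusted p = 0.0387), a call lost in 9 of the 30 fits. Calls in these directions covered 8.02% and 5.68% of all genes.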
